A study of Mus musculus with 8 samples.

Results

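Foxo1, Satb1, Bach2, Klf2, Lef1, S1pr1, Ccr7 and Il7r are genes by which resting naive T cells are recognised, and they were described here in CD4 T cells sorted from mouse spleen. They were taken as every probe set (a group of short array probes for 1 transcript region) whose annotation gives the gene as its only symbol, which found 14 probe sets of 8 genes among 22626 probe sets and 12393 named genes tested. Tcf7, the remaining gene of the 9 chosen, was not analysed here. The genes were chosen with the knockout against wild-type results of these arrays known, so their values in that comparison are a description and carry no test.

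The cells came from female mice aged 8 to 12 weeks. The 4 groups were Ahr knockout mice (KO), which lack the aryl hydrocarbon receptor and were backcrossed to C57BL/6, given TCDD, KO given DMSO, wild-type C57BL/6 (WT) given TCDD and WT given DMSO. TCDD, the prototype ligand of the receptor, was injected intraperitoneally at 10 µg/kg in corn oil, DMSO is its solvent, and all mice were killed 24 h later. Each group had 2 arrays, called biological duplicates in the series' design text, with the RNA of 4 animals pooled on each, so spread and p-values are between pools and not between animals. The labels name neither the deleted part of Ahr nor a cell type to which the deletion is limited.

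Naive T cells stay small and non-dividing while they circulate between blood, spleen and lymph nodes. The transcription factor FOXO1 is active in the nucleus when signalling through PI3 kinase and AKT is low, and it drives the genes for the interleukin 7 receptor, for CCR7 and for KLF2. KLF2 in turn drives S1PR1. CCR7 brings T cells into lymphoid tissue, S1PR1 lets them leave it, and interleukin 7 keeps them alive. BACH2, SATB1 and LEF1 hold back effector genes or organise the chromatin of the resting state, and most of these genes are turned down when a T cell is activated.

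The promoters of the 4 genes with a single start in the RefSeq table of build GRCm38.p6 are shown because they are the genes' own control regions and the mean levels of all 4 lay lower in KO. They run from 250 bases before to 50 bases after the transcription start, 5′ to 3′ in the direction of transcription, at chr3:52268087-52268386 (Foxo1, plus strand), chr4:32417185-32417484 (Bach2, plus strand), chr8:72318812-72319111 (Klf2, plus strand) and chr15:9529827-9530126 (Il7r, minus strand). Capitals mark matches, on either strand, to the FOXO core gtaaaca, the TCF and LEF core ctttga, the GC box gggcgg and the ETS core aggaagt, the last pair of motifs being chosen after the sequences were seen.
Foxo1: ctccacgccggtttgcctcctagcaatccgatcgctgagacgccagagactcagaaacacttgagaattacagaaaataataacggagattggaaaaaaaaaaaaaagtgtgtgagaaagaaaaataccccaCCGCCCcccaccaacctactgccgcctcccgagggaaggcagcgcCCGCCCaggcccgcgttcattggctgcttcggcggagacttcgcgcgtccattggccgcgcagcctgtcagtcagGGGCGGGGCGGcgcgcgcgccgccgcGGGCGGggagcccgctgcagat
Bach2: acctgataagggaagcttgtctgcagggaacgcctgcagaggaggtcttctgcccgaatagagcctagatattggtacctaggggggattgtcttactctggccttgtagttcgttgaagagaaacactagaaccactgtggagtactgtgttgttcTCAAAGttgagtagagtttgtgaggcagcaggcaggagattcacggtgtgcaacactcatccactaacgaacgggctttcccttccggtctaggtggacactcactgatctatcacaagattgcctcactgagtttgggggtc
Klf2: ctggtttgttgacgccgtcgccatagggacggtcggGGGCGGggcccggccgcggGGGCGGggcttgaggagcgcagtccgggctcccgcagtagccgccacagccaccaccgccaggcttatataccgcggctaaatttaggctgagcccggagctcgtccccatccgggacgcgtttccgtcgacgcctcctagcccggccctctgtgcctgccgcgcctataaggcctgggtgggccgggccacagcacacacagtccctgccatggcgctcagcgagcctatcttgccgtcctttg
Il7r: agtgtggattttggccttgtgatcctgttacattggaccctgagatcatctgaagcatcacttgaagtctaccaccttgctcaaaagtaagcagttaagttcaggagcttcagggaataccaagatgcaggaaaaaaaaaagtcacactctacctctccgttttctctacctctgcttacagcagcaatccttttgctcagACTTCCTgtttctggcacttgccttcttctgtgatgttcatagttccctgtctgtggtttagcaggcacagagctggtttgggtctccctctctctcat

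The Foxo1 and Klf2 windows were rich in G and C (61.3% and 69.3%, against a median of 52.7% over all 32851 promoters of the table) and held 5 and 2 GC boxes, neighbouring matches in Foxo1 being joined into 1 run of capitals. The Il7r window had 45.7% G and C and 1 ETS core, and the Bach2 window 50.3% and 1 TCF and LEF core. No base lay in matches of 2 motifs. Satb1 had 5 starts and Lef1 4. Over the 13 windows of these 6 genes, 0 held the FOXO core, 2 the TCF and LEF core, 6 the GC box and 4 the ETS core. Some windows of Lef1 overlapped each other, as did some of Satb1, so a stretch of sequence could be counted more than once. Over all promoters of the same length the shares with a match were 3.65%, 16.0%, 35.7% and 9.35% in the same order. A match here is a string of letters and not a shown binding site.

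The values are log2 expression from the authors' RMA, so a difference of 1 is a doubling. The first principal component of the 22626 probe sets held 52.1% of the variance. On it the WT arrays numbered 2 (40.35 for TCDD and 49.2 for DMSO) stood apart from the WT arrays numbered 1 (−2.04 for TCDD and 9.10 for DMSO) and from the KO arrays (−36.2 to −5.20). These WT arrays numbered 2 also had the lowest log2 difference between the 3′ and 5′ actin controls, a measure of RNA integrity, at 3.30 and 2.90, where the KO arrays read 3.48 to 3.82 and the WT arrays numbered 1 read 4.56 (TCDD) and 3.70 (DMSO). Each KO against WT difference is therefore also given within the arrays of each number. For the WT TCDD array numbered 1 the description speaks of knockout mice although 3 other entries (title, source, strain) say wild type. It was kept as WT. The targeted gene did not read lower: its brighter probe set was at 6.49 and 6.79 in KO TCDD, 7.08 and 6.60 in KO DMSO, 6.29 and 6.14 in WT TCDD and 6.29 and 6.11 in WT DMSO (limma, adjusted p = 0.0658), and a further Ahr probe set averaged 6.52 in KO and 6.48 in WT. Since it is not stated whether these probes lie inside the deletion, they check neither genotype, and KO and WT are the labels' names throughout. The labelled cell type was borne by Cd3e (9.36 ± 0.17 in KO, 9.53 ± 0.09 in WT) and by the brighter Cd4 probe set (8.16 ± 0.09 in KO, 8.37 ± 0.28 in WT; all ± values are SD over 4 arrays). Of 15 measured markers of myeloid and dendritic cells, 9 were called higher and 0 lower in KO by limma (adjusted p under 0.05 by Benjamini-Hochberg over all probe sets), where 1.9% of all genes were called higher. The mean level of that list lay between 7.44 and 7.97 on the KO arrays and between 6.53 and 6.65 on the WT arrays, without overlap. The log2 differences of the 15 ran from −0.07 to 2.97. The lysozyme gene of macrophages, Lyz2, averaged 7.49 ± 0.56 (KO) and 7.36 ± 0.61 (WT) and was not among the 9 called. Of 10 T cell markers 1 (Cd6), of 11 B cell markers 1 (Fcrla) and of 10 natural killer and CD8 markers 1 (Nkg7) were called higher and 0 lower, and of 2 red cell markers 0 were called by limma, with 1 at an unadjusted p under 0.05. These 3 genes are named because they were the ones called. The part of such other cells in the values below was not tested. In RNA from a sorted population, fewer cells of a type and less RNA per cell cannot be told apart.

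Of the 8 genes, 7 had a difference below 0 in KO by their brightest probe set, Lef1 only by −0.09, and Ccr7 lay higher. Over the 14 probe sets, 13 differences were below 0 and 1 above, with a median of −0.64 where the median over all probe sets was −0.01. By limma 3 were called lower and 0 higher in KO (of all probe sets 2.79% were called, 1.2% lower and 1.59% higher). On 6 of the 14 every KO array read below every WT array, against 6.67% of all probe sets. On 0 every KO array read above, against 5.67% of all. Since the genes were picked with this comparison known, nothing is read from these counts.

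**Figure D1:**
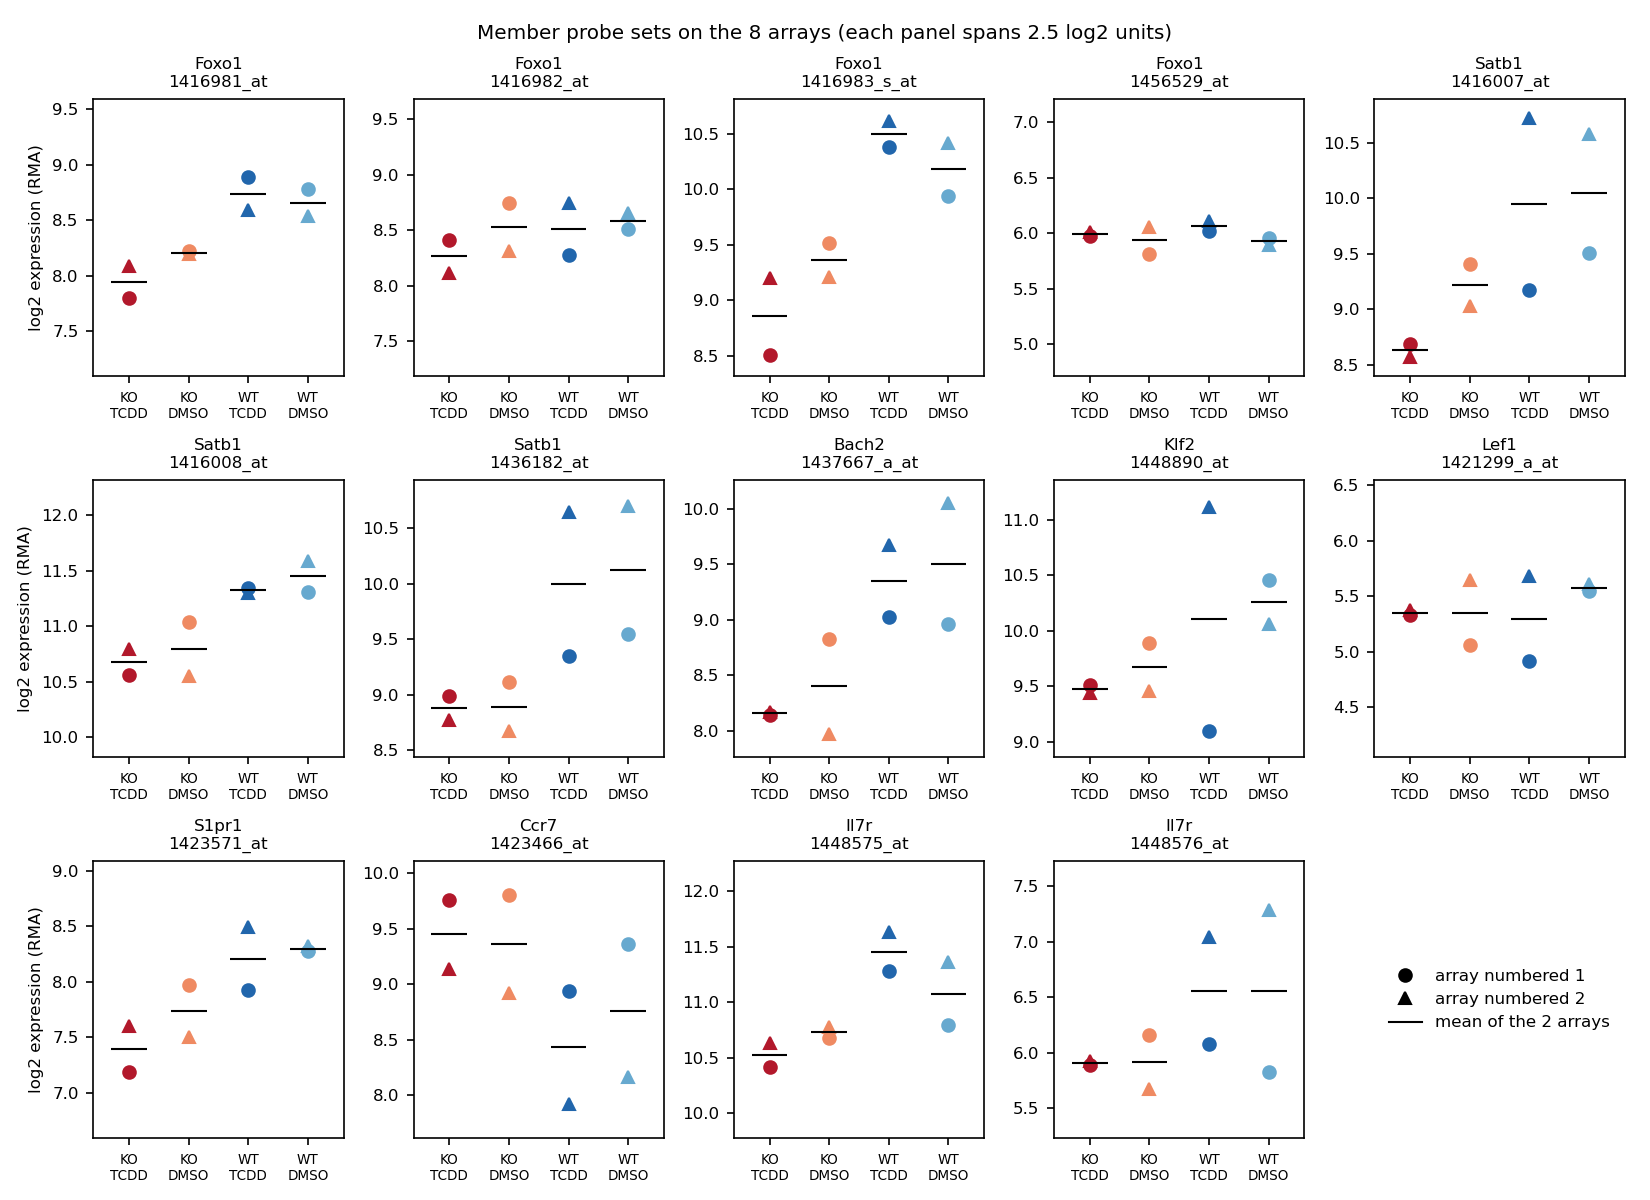
Log2 expression of the 14 probe sets on each array, 1 panel per probe set, with groups from left to right KO TCDD, KO DMSO, WT TCDD and WT DMSO. Circles are arrays numbered 1, triangles arrays numbered 2 and lines the mean of the 2. The KO arrays lie below all WT arrays on 6 probe sets, among them Foxo1 1416983_s_at (8.51 to 9.52 in KO, 9.94 to 10.62 in WT), while Ccr7 runs the other way (8.92 to 9.80 in KO, 7.92 to 9.36 in WT).

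Foxo1, the factor at the head of this circuit, was lower in KO on its brightest probe set. That probe set (1416983_s_at) read 8.51 and 9.20 in KO TCDD, 9.52 and 9.21 in KO DMSO, 10.38 and 10.62 in WT TCDD and 9.94 and 10.42 in WT DMSO. Every KO array lay below every WT array, with a gap of 0.42 log2 units between the nearest arrays. KO arrays averaged 9.11 ± 0.43 and WT arrays 10.34 ± 0.29 (SD, n = 4). The log2 difference was −1.23 (SE 0.22), so that the KO level was 42.6% of the WT level. The difference was −1.15 within the arrays numbered 1 and −1.32 within those numbered 2, and this probe set was among the 3 called.

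The other Foxo1 probe sets did not all follow. 1416981_at, also called, read 7.80 and 8.09 in KO TCDD, 8.22 and 8.20 in KO DMSO, 8.89 and 8.59 in WT TCDD and 8.78 and 8.54 in WT DMSO, a log2 difference of −0.62 (SE 0.12) with no overlap. It was −0.83 within the arrays numbered 1 and −0.42 within those numbered 2. 1416982_at overlapped fully (8.12 to 8.75 in KO, 8.28 to 8.75 in WT) with a log2 difference of −0.15 (SE 0.15), and was 0.19 higher in KO within the arrays numbered 1 and 0.49 lower within those numbered 2 (−0.49). The fourth, 1456529_at, read 5.81 to 6.06 in KO and 5.89 to 6.11 in WT, a log2 difference of −0.03 (SE 0.08), with −0.10 and 0.04 within the arrays numbered 1 and 2. The 4 probe sets of the gene therefore gave log2 differences between −1.23 and −0.03. Their places along the transcript were not analysed here.

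KLF2 is the zinc finger factor that FOXO1 drives and that keeps T cells quiescent and circulating. Klf2 read 9.51 and 9.44 in KO TCDD, 9.89 and 9.46 in KO DMSO, 9.10 and 11.12 in WT TCDD and 10.46 and 10.06 in WT DMSO. The WT arrays held both the lowest and the highest value of the 8, and they were the WT TCDD pair, 2.02 log2 units apart. The log2 difference was −0.61 (SE 0.37), with −0.08 within the arrays numbered 1 and −1.14 within those numbered 2. Without WT TCDD replicate 1 it was −0.97, and without WT TCDD replicate 2 it was −0.30.

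S1pr1, the receptor for sphingosine 1-phosphate that admits T cells to the exit route, read 7.19 and 7.60 in KO TCDD, 7.97 and 7.50 in KO DMSO, 7.93 and 8.49 in WT TCDD and 8.28 and 8.32 in WT DMSO. The groups touched at a single pair, KO DMSO replicate 1 just above WT TCDD replicate 1. KO arrays averaged 7.57 ± 0.32 and WT arrays 8.26 ± 0.24, which is a log2 difference of −0.69 (SE 0.18). It was −0.53 within the arrays numbered 1 and −0.86 within those numbered 2, and over 21 alternative settings it stayed between −0.86 and −0.53.

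Ccr7, the receptor for the chemokines that call T cells into lymphoid tissue, was the exception. It read 9.76 and 9.14 in KO TCDD, 9.80 and 8.92 in KO DMSO, 8.94 and 7.92 in WT TCDD and 9.36 and 8.16 in WT DMSO. In every group the array numbered 1 read above the array numbered 2, and number 2 minus number 1 was −0.62 in KO TCDD, −0.88 in KO DMSO, −1.02 in WT TCDD and −1.20 in WT DMSO. KO was higher by 0.63 within the arrays numbered 1 and by 0.99 within those numbered 2. Over all arrays KO and WT overlapped, the log2 difference was 0.81 (SE 0.34), and limma did not call it. Without both WT arrays numbered 2 the difference was 0.26.

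Il7r, the receptor chain that binds interleukin 7, had 2 probe sets. The brighter (1448575_at) read 10.42 and 10.63 in KO TCDD, 10.68 and 10.78 in KO DMSO, 11.28 and 11.63 in WT TCDD and 10.80 and 11.36 in WT DMSO. All KO arrays lay below all WT arrays, by a margin of only 0.02. The log2 difference was −0.64 (SE 0.17), with −0.49 within the arrays numbered 1 and −0.79 within those numbered 2. The dimmer (1448576_at) read 5.67 to 6.16 in KO and 5.83 to 7.29 in WT, where the arrays numbered 2 alone were high (7.04 for TCDD and 7.29 for DMSO). Its log2 difference was −0.65 (SE 0.31) over all arrays, 0.07 within the arrays numbered 1 and −1.37 within those numbered 2.

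Satb1 encodes a chromatin organiser that arranges lineage genes during T cell development, and its 3 probe sets split into 2 patterns. The brightest (1416008_at) read 10.56 and 10.80 in KO TCDD, 11.04 and 10.55 in KO DMSO, 11.35 and 11.30 in WT TCDD and 11.31 and 11.59 in WT DMSO. The groups did not overlap, the log2 difference was −0.65 (SE 0.13), and this was the third probe set called. It was −0.53 within the arrays numbered 1 and −0.77 within those numbered 2. The other pair read much higher on the WT arrays numbered 2 than elsewhere. 1436182_at read 8.67 to 9.11 in KO, 9.35 and 9.55 on the WT TCDD and DMSO arrays numbered 1, and 10.65 and 10.70 on those numbered 2. Its log2 difference of −1.18 (SE 0.31) was −0.40 within the arrays numbered 1 and −1.96 within those numbered 2. 1416007_at (8.57 to 9.41 in KO, 9.17 to 10.72 in WT) had a log2 difference of −1.07 (SE 0.36), and it was −0.29 and −1.85 within the arrays numbered 1 and 2.

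Bach2, a repressor that restrains effector differentiation, read 8.14 and 8.17 in KO TCDD, 8.83 and 7.97 in KO DMSO, 9.02 and 9.67 in WT TCDD and 8.96 and 10.05 in WT DMSO. Every KO array lay below every WT array, with a gap of 0.13. KO arrays averaged 8.28 ± 0.38 and WT arrays 9.43 ± 0.53. The log2 difference of −1.15 (SE 0.28) put KO at 45.1% of the WT level. Within the arrays numbered 1 it was −0.51 and within those numbered 2 it was −1.79. Lef1, the HMG box factor that works with TCF proteins, read 5.06 to 5.65 in KO and 4.92 to 5.68 in WT. Its log2 difference was −0.09 (SE 0.19), with −0.04 and −0.13 within the arrays numbered 1 and 2, and the groups overlapped fully. Its only probe set lay under the median probe set mean of 6.13, and its sign turned in 3 of 20 alternatives, so no direction is given for Lef1.

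**Figure D2:**
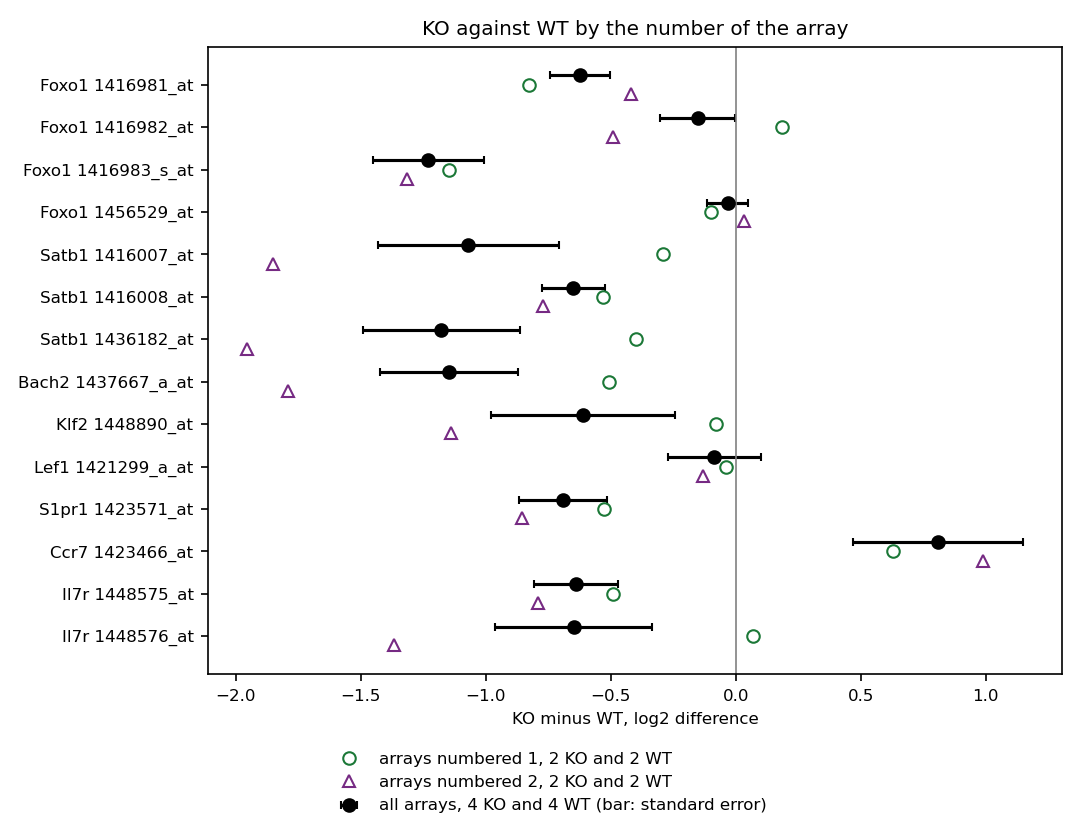
KO minus WT log2 difference of the 14 probe sets over all 8 arrays (filled circles with the standard error), within the arrays numbered 1 (open circles) and within the arrays numbered 2 (triangles). Foxo1 1416983_s_at stays near −1.23 with either number, while Bach2 and the Satb1 probe sets 1416007_at and 1436182_at lie between −0.51 and −0.29 with number 1 and between −1.96 and −1.79 with number 2.

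The values differed with the array number, and unequally among the members. The median KO against WT difference over the 14 probe sets was −0.35 within the arrays numbered 1 and −0.82 within those numbered 2, where the medians over all probe sets were −0.04 and 0.04. In WT, 11 of the 14 read higher on array 2 than on array 1 under TCDD and 10 under DMSO, with median differences of 0.52 and 0.22 (−0.05 and −0.04 over all probe sets). In KO the counts were 9 under TCDD and 3 under DMSO, with medians of 0.04 and −0.44. With the arrays numbered 1 alone, limma called 0 of the 14 (0.0% of all probe sets called, 3000 at an unadjusted p under 0.05), and with those numbered 2 alone, a setting chosen after seeing the data, it called 8, of which 7 lower and Ccr7 higher (7.61% of all probe sets called). Without the 2 WT arrays numbered 2 it called 0 (0.124% of all). The actin difference also differed with the array number in WT. With it as a covariate the differences over all 8 arrays were −1.22 for Foxo1 1416983_s_at, −1.12 for Bach2 and −1.03 for Satb1 1416007_at. Without it they were −1.23, −1.15 and −1.07. These pooled differences do not address the split by array number, and the cause of that split was not tested. With the covariate 7 of the 14 probe sets were called, all lower, where 1834 of all 22626 probe sets were called. They belong to Satb1, Foxo1, S1pr1 and Bach2 alone. The mean level of the myeloid list was 7.51 and 7.97 in KO TCDD, 7.44 and 7.79 in KO DMSO, 6.62 and 6.65 in WT TCDD and 6.57 and 6.53 in WT DMSO (numbers 1 and 2), and single markers went both ways with the number in WT. Lyz2 was at 6.95 and 7.77 in WT TCDD and 6.72 and 7.98 in WT DMSO. Irf8 went the other way, at 6.92 and 6.28 in WT TCDD and 7.44 and 6.07 in WT DMSO. Leaving out 1 array ended all calls among the members for 5 of the 8 arrays (both KO TCDD arrays, KO DMSO replicate 2, and both WT arrays numbered 2), and in the same settings the calls over all probe sets were 109 to 362, against 631 with all arrays. Without WT TCDD replicate 1 only Satb1 1436182_at was called (667 over all probe sets), and without KO DMSO replicate 1 the count was 5 (566 over all). The TCDD arrays alone and the DMSO arrays alone gave 0 calls over all probe sets (2832 and 1545 at an unadjusted p under 0.05), and a model of 4 group means gave 161, of which 0 were members.

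TCDD was not picked out by the choice of genes, and it was tested. In KO mice 11 of the 14 probe sets read lower after TCDD than after DMSO, 2 read higher and 1 was equal, with a median of −0.20. Foxo1 1416983_s_at differed by −0.51 (95% interval −1.17 to 0.15), S1pr1 by −0.34 (−0.94 to 0.26), and Satb1 1416007_at by −0.59 (−1.89 to 0.71). Both TCDD arrays lay below both DMSO arrays on 4 of the 14 (2 of Foxo1, 1 of Satb1 and 1 of Il7r), against 7.14% of all probe sets. Both lay above on 0 of the 14, against 20.5% of all probe sets. With 2 arrays a group, limma called 0 of the 14 (smallest adjusted p = 0.9997) and 0.0% of all probe sets. At an unadjusted p under 0.05 it was 0 of the 14 and 1.69% of all.

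In WT mice 9 read lower after TCDD, 4 higher and 1 equal, with a median of −0.10. The largest rise was that of Il7r 1448575_at at 0.38 (95% interval −0.14 to 0.89) and the largest fall that of Ccr7 at −0.33 (−1.62 to 0.96), among these 14, neither of which passed. Limma called 0 of the 14 (smallest adjusted p = 0.997) and 0.0% of all probe sets, and at an unadjusted p under 0.05 it was 0 of the 14 and 2.79% of all. On 1 of the 14 (Foxo1 1456529_at) both TCDD arrays lay above both DMSO arrays, against 18.9% of all, and on 0 below, against 10.8% of all. The intervals of single probe sets reach as far as 1.27 and −1.62 on the log2 scale, so differences of up to that size were not excluded for the widest of them. The fit held no term for the array number, with which the WT arrays differed.

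The TCDD effect in KO minus that in WT was tested directly. It was −0.83 for Foxo1 1416983_s_at (95% interval −1.76 to 0.10; limma unadjusted p = 0.0729, adjusted p = 0.998) and −0.58 for Il7r 1448575_at (−1.32 to 0.16; adjusted p = 0.998), and limma called 0 of the 14 (0.0% of all probe sets). At an unadjusted p under 0.05 it was 0 of the 14 and 2.78% of all. Seen within treatments, Foxo1 1416983_s_at differed between KO and WT by −1.65 after TCDD and −0.82 after DMSO, and Il7r 1448575_at by −0.93 after TCDD and −0.35 after DMSO. Group means of Foxo1 1416983_s_at were 8.86 in KO TCDD, 9.37 in KO DMSO, 10.50 in WT TCDD and 10.18 in WT DMSO. Within KO the TCDD arrays lay just below the DMSO arrays, the nearest being 9.20 (TCDD) and 9.21 (DMSO), and the WT arrays overlapped. Limma called neither TCDD difference of this probe set.

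**Figure D3:**
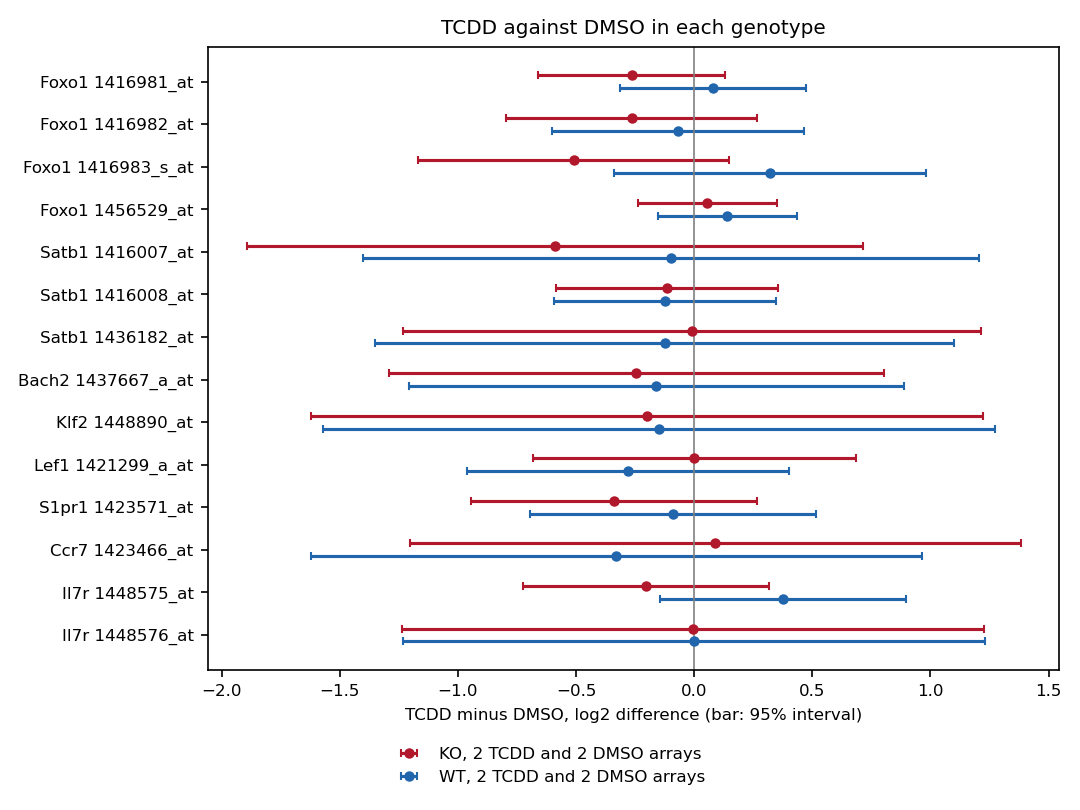
TCDD minus DMSO log2 difference of the 14 probe sets in KO (upper of each pair) and WT (lower), with the 95% interval of the limma fit. All 28 intervals include 0, and those of Satb1 1416007_at, Klf2 and Ccr7 are the wider ones, reaching −1.89, −1.62 and 1.38.

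The FOXO circuit, interleukin 7 signalling and activation lists held the called genes around the members, as follows. Counts use 1 probe set per gene, the brightest, over which 3.24% of 12393 genes were called, 1.33% lower and 1.9% higher in KO, with a median difference of 0.01. At an unadjusted p under 0.05, 11.6% of all genes were lower and 10.6% higher. The lists were drawn up with earlier results known. Of 21 measured genes listed as other FOXO factors, as setting FOXO activity or as FOXO targets, 12 differences were below 0 and 9 above. The list median was −0.25 and the range −1.25 to 0.53. Limma called 2 lower and 0 higher in KO (8 at an unadjusted p under 0.05, 5 lower and 3 higher). Ccng2, cyclin G2, a FOXO target linked to cell cycle exit, fell by 1.25 on the log2 scale (8.38 ± 0.49 in KO, 9.63 ± 0.34 in WT; limma, adjusted p = 0.0444), with −0.67 within the arrays numbered 1 and −1.84 within those numbered 2. Pik3r1, the regulatory subunit of PI3 kinase, fell by 1.08 (8.10 ± 0.43 in KO, 9.18 ± 0.18 in WT; limma, adjusted p = 0.0362), with −0.72 and −1.44 by number. The other probe set of Ccng2 (−0.05) and both others of Pik3r1 (−0.15 and 0.04) were not called.

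Of 16 genes of interleukin 7 receptor signalling, 9 differences were below 0 and 7 above (list median −0.03, range −0.94 to 0.50). By limma 3 were at an unadjusted p under 0.05, 1 lower and 2 higher. Past the adjusted threshold 1 was called lower and 0 higher in KO. The called gene was Bcl2l11, which encodes the death-promoting protein BIM, itself a FOXO target. It fell by 0.94 (8.26 ± 0.34 in KO, 9.20 ± 0.20 in WT, limma adjusted p = 0.0353), with −0.76 and −1.12 by number. The 4 other probe sets of Bcl2l11 were not called (−0.37 to 0.03).

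Of 18 other naive and resting genes, limma called 0 (7 at an unadjusted p under 0.05, 6 lower and 1 higher; list median −0.09, range −0.70 to 0.45). Of 15 partners and corepressors of TCF and LEF factors, among which Tcf3 encodes an E protein, it called 0 (6 at an unadjusted p under 0.05, all lower; list median −0.10, range −1.11 to 0.25). Of 19 genes of homing and egress it called 0 by the brightest probe set (5 at an unadjusted p under 0.05, 3 lower and 2 higher; list median −0.08, range −1.21 to 1.03). Another probe set of Rap1b, a GTPase that switches on integrins, was called lower (named after its values were seen; −1.21; limma, adjusted p = 0.0487), while the brightest read −0.52. Within the arrays numbered 1 and 2 the called probe set differed by −0.81 and −1.61, and the brightest by 0.05 and −1.08. Neither the brightest nor the remaining Rap1b probe set (−0.26) was called.

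Of 16 activation and memory markers, 12 differences were above 0 and 4 below, with a list median of 0.25 and a range of −0.86 to 2.12. Limma called 3 higher and 0 lower in KO (10 at an unadjusted p under 0.05, 8 higher and 2 lower). The chemokine receptor Cxcr3 rose by 2.12 (10.55 ± 0.17 in KO, 8.44 ± 0.53 in WT; limma, adjusted p = 0.00788), with 1.85 and 2.39 by number, and the calcium-binding proteins S100a4 and S100a6 rose by 1.09 and 0.94 (limma, adjusted p = 0.0277 and 0.0476). Within the arrays numbered 1 and 2 the differences were 0.94 and 1.24 for S100a4 and 0.83 and 1.06 for S100a6. Myeloid cells also express the S100 genes, and the myeloid marker levels given above move with the same groups. The part of such cells in the values of these markers was not tested.

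**Figure D4:**
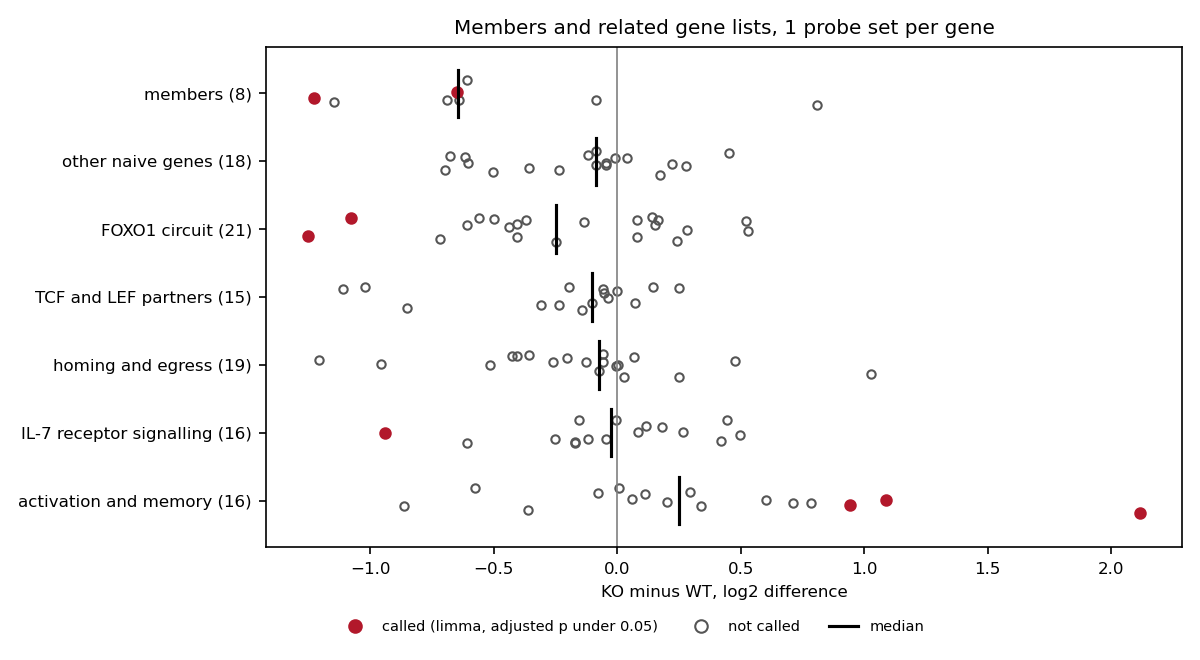
KO minus WT log2 difference of the 8 members and of the genes of 6 related lists, 1 point per gene by its brightest probe set, with the number of genes in brackets. Filled points were called by limma and vertical lines are medians, which run from −0.65 for the members to 0.25 for activation and memory markers.

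The profiles nearest to each member over the 8 arrays were found among 10320 brighter probe sets of named genes, by the root mean square difference after each profile was centred on its mean. For Bach2 they were Tcf12 (0.07 log2 units) and Ppp4r2 (0.10), and for Satb1 1416008_at Yaf2 (0.06) and Galnt1 (0.08). For S1pr1 they were Zfp36l1 (0.08) and Pcnp (0.10), for Foxo1 1416983_s_at Eif3e (0.17) and Nr1d2 (0.19), and for Il7r 1448575_at Plekha2 (0.13) and Rnf14 (0.13). For Klf2 they were Hnrnpf (0.17) and Ddx39b (0.19), for Lef1 Scaf4 (0.10) and Cebpzos (0.13), and for Ccr7 Slc3a2 (0.17) and Trim28 (0.23). Among the members, the closest pair was S1pr1 and Satb1 1416008_at (0.19) and the farthest Foxo1 1416983_s_at and Ccr7 (1.24). The distances describe these 8 arrays, whose values differ with the array number.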

How the data were processed

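Expression was measured on Affymetrix MOE430A arrays of FACS-sorted splenic CD4 T cells. TRIzol extraction was followed by amplification with an Ambion message AMP kit, per the labels' protocols. The deposited values are log2 expression, made by the authors with RMA, a method that corrects background, normalizes arrays and summarises each probe set. RMA and affy are named in the submitters' processing notes. Versions are not given in the sources used here. Background correction compresses differences of dim probe sets. Array medians were 6.08 to 6.15. Of 22690 probe sets, 64 controls were left out and 22626 tested, of which 20380 have 1 symbol in the array annotation. Any pair of arrays shared at most 2.85% identical values, so none was deposited under several names. No processing batch is named, and precision is limited by the number of arrays, which carry no read depth.

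Fits used limma 3.58.1 in R 4.3.3 (lmFit and eBayes) on all probe sets with Benjamini-Hochberg adjustment, called at 0.05, and were tested on simulated data. The simulated arrays were drawn independently, without a difference by array number such as the measured WT arrays show. KO was compared with WT as 4 against 4 arrays, as in the series' design text. TCDD against DMSO and its difference between genotypes came from a model of 4 group means. The labels say that the arrays are biological duplicates of pooled animals. The members, lists, markers, tests and alternatives were chosen with earlier results of these data known. All member probe sets are reported, with called genes of 6 lists and the 2 nearest profiles of each member. Promoters are RefSeq's of build GRCm38.p6 and were matched by symbol for 6 of the 8 measured genes (not S1pr1 and Ccr7).

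Alternatives were a replicate block, median centring, a further quantile normalization, a filter on probe sets under the median mean of 6.13, trend and robust eBayes, array weights, leaving out each array, a model of group means, subsets of arrays and an actin covariate.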

Additional observations from a re-analysis of the deposited data

Results flagged for a closer look

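Klf2 on KO DMSO replicate 1, at 9.89, lay far above the other 3 KO arrays (9.44 to 9.51). It was the only far array among the 28 sets of 4 arrays examined (14 probe sets in KO and in WT), and chance gives about 1 in 20 such sets. The difference of the TCDD effect between genotypes passed for 0 of the 14 probe sets by limma (0 at an unadjusted p under 0.05).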

How the results depend on the processing

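The 3 member probe sets called between KO and WT (631 over all probe sets) became 5 with dim probe sets left out (884 over all) or with array weights (1604), 7 with the actin difference as covariate (1834), and 1 with trend and robust settings (526). The count was 0 with 4 group means, with only TCDD or only DMSO arrays, with the arrays numbered 1 alone and without both WT arrays numbered 2. It was 8 from the arrays numbered 2 alone, a setting chosen after seeing the data. Leaving out 1 array gave 0 to 5 calls: 5 when KO DMSO replicate 1 was dropped, 2 for WT DMSO replicate 1, 1 for WT TCDD replicate 1 and 0 for each of the other 5 arrays. The subsets hold fewer arrays, and for the other settings the cause was not tested. Repeated quantile normalization gave 3 (985) and median centring 2 (559). With the replicate block the count was 4, Ccr7 being added as higher in KO. The numbers were not taken as pairs. Over the pairs of groups, the correlation of deviations of arrays with the same number ran from −0.29 (KO DMSO and WT DMSO) to 0.63 (WT TCDD and WT DMSO). Between KO TCDD and KO DMSO it was 0.12. A block for WT alone was not fitted, so the WT TCDD test took WT arrays of the same number as independent. The replicate block, common to KO and WT, changed no count for TCDD (0 calls in KO, in WT and for their difference). Over all probe sets the block gave 801. No called member changed direction in any alternative. Foxo1 1416983_s_at stayed between −1.65 and −0.82 and was called in 10 of 21 alternatives. The genes were picked with this comparison known and every alternative reuses these arrays, so nothing is read from this steadiness. The TCDD counts were 0 throughout the alternatives run for them by limma.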
